A study of Mus musculus with 51 samples.

Results

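RNA-seq of femoral bone was compared between mice taken off vitamin C (VitC+/-) and mice kept on it (VitC+). These 6 libraries, of 51 samples in the series, were chosen by their titles, 3 of each group, from the libraries with a table of RPKM values. The mice of both groups carried Gulotm1Mae, an inactivated Gulo gene, on a C57BL/6 background and were 20 weeks old. VitC+ mice had 3.3 g/L VitC in their drinking water for 20 weeks, and VitC+/- mice for 15 weeks followed by 5 weeks without. The 3 C57BL/6 libraries labelled WT, of the same age, share the estimate of the spread and are given beside the others where they help. According to the study's methods the femurs were flushed and minced before RNA extraction, and each library comes from its own animal. The question asked here is which cell type, signalling and metabolic genes changed with withdrawal outside a list of 59 bone-selective genes named by the study.

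VitC is a cofactor of iron- and alpha-ketoglutarate-dependent dioxygenases, which hydroxylate collagen, hypoxia-inducible factors, histones and methylated DNA. Mice make VitC with the enzyme that Gulo encodes, and mice without it depend on VitC from the diet. Besides osteoblasts and osteocytes, a femur holds osteoclasts, vessels, fat and the blood-forming marrow, whose B cells, granulocytes and red cell precursors all mature next to bone surfaces. In RNA of whole tissue, fewer cells of a type and less RNA per cell cannot be told apart, and this holds for each list below.

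The depth computed from the RPKM steps was 30870000 to 46980000 reads or read pairs in the 6 libraries and 7526000 to 39290000 in WT. Xist was between 30.9 and 53.4 scaled RPKM in all 9 libraries and the Y-linked gene Ddx3y at most 0.146, so the libraries did not differ in these marks of sex (genes chosen after their values were seen). Gulo, on chr14:65986787-66009210 (mm10, as are the gene positions below), was below the filter, with an RPKM of 0.522, 0.486 and 0 for the WT label, 0.180, 0.0352 and 0.0294 for the VitC+ label and 0.0126, 0.0141 and 0.0186 for the VitC+/- label. Thus the library labelled WT replicate 3 showed no Gulo signal. Some libraries held more of another tissue than others. Summed over 25 skeletal muscle genes, scaled RPKM was 56.8 to 2013 in VitC+ and 15.2 to 955 in VitC+/-, and the high libraries were VitC+ replicate 2 and VitC+/- replicate 1. In WT the sum was 507, 19.0 and 1180, so WT replicates 1 and 3 were high as well. Only VitC+ replicate 2 and VitC+/- replicate 1 are called muscle-rich below, and fits without them keep the WT libraries. The sum over 23 cartilage genes was highest in VitC+ replicate 3 and the sum over 25 fat cell genes in VitC+/- replicate 2. Bone was present in each, with the collagen gene Col1a1 at 2307, 1326 and 2881 in VitC+ and 510.4, 101 and 1359 in VitC+/- scaled RPKM. Neutrophil granule genes were present in all libraries although the femurs had been flushed, with Elane, a neutrophil protease, at 334, 753 and 507 in VitC+ and 293, 544 and 195 in VitC+/-.

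After withdrawal, 946 of 12571 genes tested were lower and 745 were higher in VitC+/- than in VitC+ femurs, or 7.53% and 5.93% (limma with trend, Benjamini-Hochberg adjusted p under 0.05, called the threshold below). Of the 1691 genes, 1667 lay outside the bone-selective list. No gene past the threshold changed direction when 1 of the 6 libraries was left out. A change was unlikely, as the genes were picked in a fit that shares most of these libraries. The threshold itself depended on the libraries, as 250 lower and 143 higher genes, 1.99% and 1.14% of all genes tested, passed it in the fit of all libraries and in each of the 6 fits that left 1 library out. These 393 genes are called stable here, and the other 1298 lost the threshold in at least 1 fit. Leaving out VitC+/- replicate 1 gave 321 lower and 188 higher genes, and leaving out VitC+ replicate 2 gave 339 and 167. Without both of these muscle-rich libraries 72 genes were lower and 16 higher, from 2 libraries a group. The WT libraries, some of them high in muscle genes, stayed in that fit for the spread. The part of muscle tissue in the counts was not tested. Regardless of the test, all 3 VitC+/- values lay below all 3 VitC+ values for 19.1% of genes tested and above them for 21.4%.

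**Figure D1:**
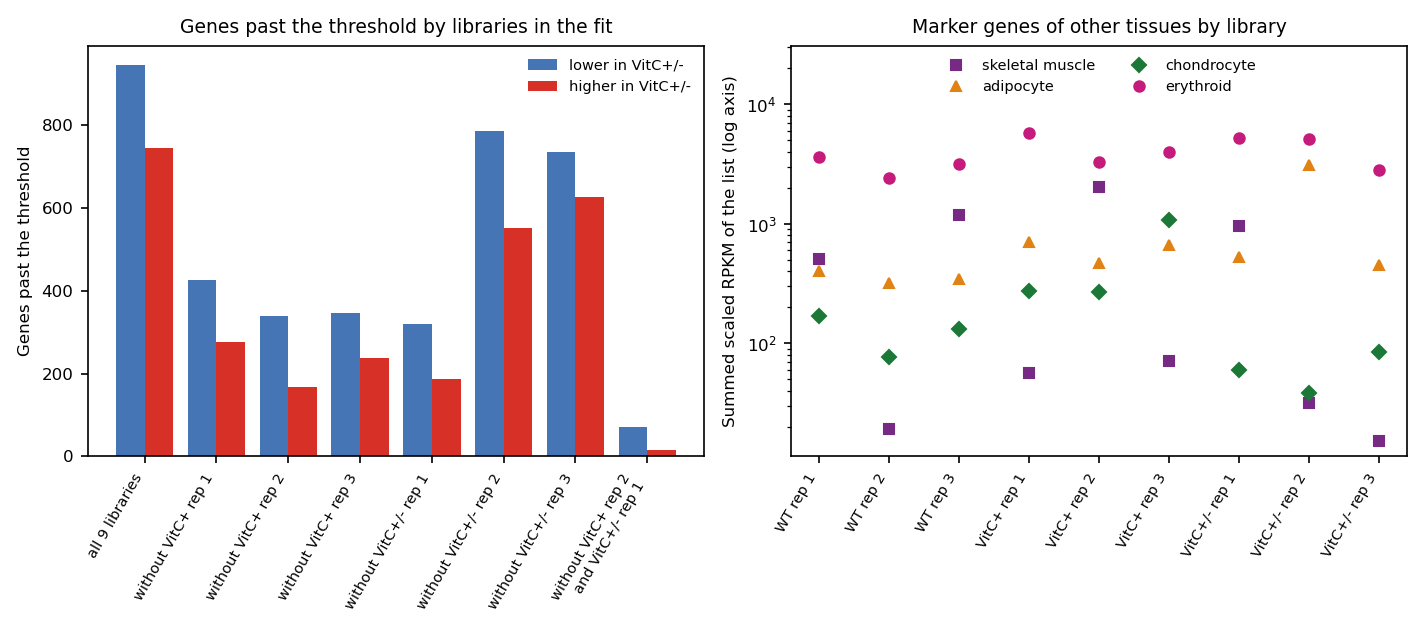
Left, the number of genes past the threshold as lower (blue bars) or higher (red bars) in VitC+/- than in VitC+, for the fit of all 9 libraries and for fits without the libraries named on the axis. Right, the scaled RPKM summed over the genes of 4 marker lists on a log axis, 1 point per library and list. The count falls from 946 and 745 to 72 and 16 without the 2 muscle-rich libraries, and the muscle sum is high in 4 libraries, the fat cell sum in VitC+/- replicate 2 and the cartilage sum in VitC+ replicate 3.

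The 10 largest stable falls outside the bone-selective list included matrix, cartilage and B-cell precursor genes. Lipc, hepatic lipase, on chr9:70798128-70934808, had a scaled RPKM of 27.8, 14.5 and 25.0 in VitC+ and 0.435, 0.237 and 0.376 in VitC+/- (log2 fold change -4.71 ± 0.33 SE, limma adjusted p = 0.00037). Scaled RPKM is reads per kilobase of gene and per library depth, divided by a scaling factor for each library, and fold changes are on the log2(scaled RPKM + 0.5) scale, which understates those of low genes. The 3 VitC+/- libraries were thus all far below the 3 VitC+ libraries and also below WT, at 8.52, 3.42 and 6.62. Cpz, a carboxypeptidase of the extracellular matrix, fell from 32.0, 14.0 and 28.3 to 0.295, 0.126 and 0.628, with a log2 fold change of -4.85 ± 0.40. Col24a1, a fibrillar collagen of forming bone, was at 9.01, 7.06 and 12.5 in VitC+ and 0.176, 0.111 and 0.371 in VitC+/-. Bglap2, a copy of the osteocalcin gene, fell by the most of these genes, with a log2 fold change of -6.60 ± 0.54, but shares sequence with other osteocalcin copies, and how reads were divided among the copies is uncertain. The secreted phospholipase gene Pla2g5 and the genes 2310046A06Rik and BC055402 were the other non-cartilage, non-lymphoid ones among the 10 largest falls, with log2 fold changes of -3.56, -3.96 and -3.67. Cartilage collagen Col2a1 and the B-cell precursor genes Vpreb3 and Dntt, described below, complete them.

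The 10 largest stable rises included secreted regulators and subunits of channels and receptors. Serpina3n, a secreted protease inhibitor of the acute phase, was at 1.2, 0.170 and 0.174 in VitC+ and 14.8, 35.3 and 3.82 in VitC+/- (log2 fold change 3.86 ± 0.70 SE, limma adjusted p = 0.011). Hbegf, a ligand of the epidermal growth factor receptor, was at 1.52, 1.22 and 1.48 in VitC+ and 11.6, 6.36 and 29.1 in VitC+/-, and its VitC+/- values differed among themselves by more than those of VitC+. Kcne4, a potassium channel subunit, rose by 3.14 ± 0.55 on the log2 scale, and VitC+ replicate 1 held more of it than the other VitC+ libraries, at 2.27, 0.338 and 0.344. Adc, an antizyme inhibitor also named Azin2, went from 1.57, 0.593 and 1.58 to 5.36, 6.92 and 8.07. Cnih2, which accompanies glutamate receptors to the membrane, went from 1.06, 0.858 and 0.882 to 8.42, 8.22 and 4.32. Mir144, a microRNA gene of red cell precursors, passed as well, with a log2 fold change of 3.88 ± 0.65, but its entry is so short that few reads make a large RPKM. Adamts1, Errfi1, Fst and Zbtb16 are described with their lists below.

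In all, 60 lists of marker and pathway genes were described without their bone-selective members, and their medians are shown in the plot of list medians. Of 1559 listed genes 1377 passed the filter of at least 1 RPKM in 3 of the 9 libraries, which a gene can also pass through the group where it is high, and the other 182 were not tested. Genes named below are the first of a list by p, those that define its cell type or step, and some further members chosen after their values were seen. The median log2 fold change of all genes tested was 0.02. Where a list's counts come without them, the shares of all genes tested are 7.53% lower and 5.93% higher. By limma, 3938 of all genes tested had an unadjusted p under 0.05, counting both directions. Of the cell type lists, those of B-cell precursors, dendritic cells, mast cells and basophils, megakaryocytes, chondrocytes and osteoblasts had the lowest medians, and those of erythroid cells, osteoclasts and fat cells the highest. Among signalling and metabolism lists, the type I interferon list stood lowest and the glucocorticoid target list highest.

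**Figure D2:**
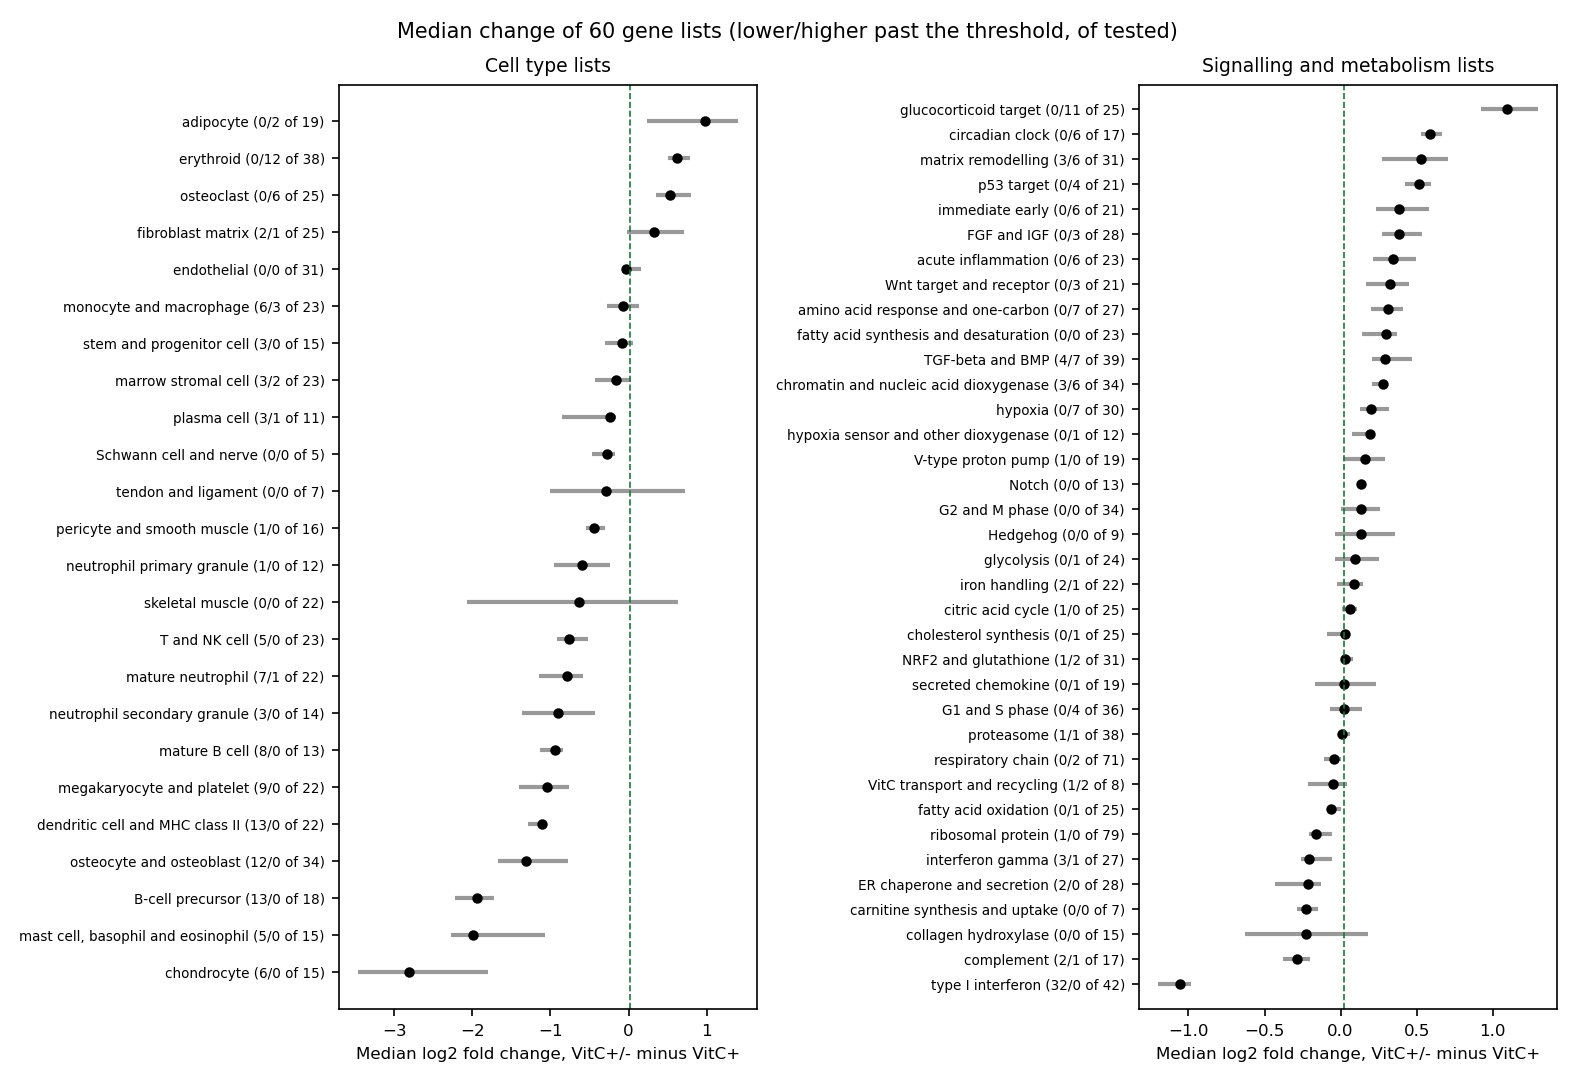
Median log2 fold change (VitC+/- minus VitC+) of each list (black points), with the range of that median over the 6 fits that leave out 1 library (grey lines) and the median of all genes tested (dashed green line). Numbers in brackets give members lower and higher past the threshold, of members tested, and the type I interferon list has 32 lower and 0 higher of 42.

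More genes fell in the type I interferon list than in any other list. Interferon binds its receptor on the cell surface, and a complex of transcription factors that includes STAT2 and IRF9 then carries the signal to the nucleus, where antiviral genes are switched on. Of 42 genes tested, 32 fell and 0 rose, where the shares among all genes tested were 7.53% and 5.93%. Of the falls 17 were stable, as were 1.99% of all genes tested, and the median log2 fold change was -1.05, between -1.197 and -0.99 with 1 library left out. In 39 genes the VitC+/- libraries lay entirely below the VitC+ libraries, against 19.1% of all genes tested. Among regulators, Irf7, the transcription factor that amplifies interferon production, had a scaled RPKM of 18.9, 13.8 and 13.3 in VitC+ and 3.16, 2.99 and 2.40 in VitC+/- (log2 fold change -2.23 ± 0.17 SE, limma adjusted p = 0.00037). Irf9, the DNA-binding part of the signalling complex, was at 21.2, 20.3 and 17.6 in VitC+ and 13.1, 10.0 and 9.60 in VitC+/- (log2 fold change -0.83 ± 0.15 SE, limma adjusted p = 0.011). The groups did not overlap for either gene.

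Among effectors, Isg15, a ubiquitin-like protein attached to other proteins during the antiviral response, on chr4:156199424-156200818, was at 32.1, 25.8 and 26.8 in VitC+ and 6.04, 3.61 and 4.67 in VitC+/-, a 5.51-fold fall (log2 fold change -2.46 ± 0.19 SE, limma adjusted p = 0.00037). Oas2, an enzyme that makes the messenger for RNase L, was at 6.72, 6.63 and 4.54 in VitC+ and 0.648, 0.408 and 0.384 in VitC+/- (log2 fold change -2.71 ± 0.21 SE, limma adjusted p = 0.00037). Its relatives moved with it, and Oas1a, Oas1g, Oas3, Oasl1 and Oasl2 were all stable falls, with log2 fold changes of -2.54, -1.57, -1.74, -1.375 and -2.39. Reads can be shared among the near-identical Oas1 copies, so the split between Oas1a and Oas1g is uncertain. Rsad2, or viperin, an inhibitor of viral replication, was at 11.9, 11.3 and 12.5 in VitC+ and 4.53, 2.96 and 3.22 in VitC+/- (log2 fold change -1.63 ± 0.20 SE, limma adjusted p = 0.0023). Further stable falls were in Usp18, which removes ISG15 from proteins, in Mx1, an antiviral GTPase, in Zbp1, a sensor of nucleic acids, and in Ifit1, which binds viral RNA, with log2 fold changes of -1.53, -1.78, -1.42 and -1.54.

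Parts of the signalling chain did not pass. Stat2 was at 12.1, 9.34 and 8.04 in VitC+ and 14.3, 11.4 and 7.54 in VitC+/- (log2 fold change 0.14 ± 0.24 SE, limma adjusted p = 0.73) and overlapped between groups. The receptor genes Ifnar1 and Ifnar2, chosen after their values were seen, had log2 fold changes of 0.18 and -0.06 with limma adjusted p of 0.43 and 0.75. Genes mostly tied to interferon gamma did not move as one. Of 27 tested, 3 were lower, among them B2m, the light chain of MHC class I, at 755, 871 and 790.3 in VitC+ and 471, 419 and 510.3 in VitC+/-, and 1 was higher, the GTPase gene Iigp1, at 4.68, 3.76 and 3.68 in VitC+ and 12.6, 11.7 and 7.41 in VitC+/-, which was stable. Without the 2 muscle-rich libraries 7 type I interferon genes were past the threshold, with a median of -1.16, from 2 libraries a group. Compared with WT, 36 of the 42 were lower in VitC+/- and 0 higher, where 15.9% of all genes tested were lower and 15.3% higher. That comparison uses the same VitC+/- libraries.

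Promoters of these genes were read from RefSeq (GRCm38.p6), 250 bases before to 50 after each start site, and searched on both strands for GAAANNGAAA, the core of the interferon-stimulated response element that IRF and STAT complexes bind. Of the 31 type I interferon genes with a promoter in the table, 17 (54.8%) held it, against 3.83% of 8925 promoters of genes tested. It was in 8 of 12 stable members and in 4 of 9 members that were not past the threshold. Matches can overlap each other, and a match is a string of letters, not shown to be bound here. Bst2, I830012O16Rik, Ifit3 and Oas1g fell and held 2 matches each, and Ddx60, which did not pass, also held 2. The 3 promoters below are further examples of genes that fell while holding more than 1 match. They are written 5′ to 3′ along the gene's strand, with the matches to the motif or its reverse complement in capitals. Isg15 lies on the minus strand (chr4:156200769-156201068), Oas1a on the minus strand (chr5:120907476-120907775) and Ifit1 on the plus strand (chr19:34640639-34640938).
Isg15: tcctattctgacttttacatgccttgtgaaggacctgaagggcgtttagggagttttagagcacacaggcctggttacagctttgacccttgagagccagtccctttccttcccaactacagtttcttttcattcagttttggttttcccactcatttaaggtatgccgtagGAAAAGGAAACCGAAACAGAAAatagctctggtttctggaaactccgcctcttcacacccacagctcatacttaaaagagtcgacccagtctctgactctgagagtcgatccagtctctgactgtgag
Oas1a: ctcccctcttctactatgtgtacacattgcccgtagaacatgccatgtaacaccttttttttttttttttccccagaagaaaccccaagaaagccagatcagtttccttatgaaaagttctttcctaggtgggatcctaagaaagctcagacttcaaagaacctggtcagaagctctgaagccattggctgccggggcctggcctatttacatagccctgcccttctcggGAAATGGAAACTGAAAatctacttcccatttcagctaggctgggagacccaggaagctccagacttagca
Ifit1: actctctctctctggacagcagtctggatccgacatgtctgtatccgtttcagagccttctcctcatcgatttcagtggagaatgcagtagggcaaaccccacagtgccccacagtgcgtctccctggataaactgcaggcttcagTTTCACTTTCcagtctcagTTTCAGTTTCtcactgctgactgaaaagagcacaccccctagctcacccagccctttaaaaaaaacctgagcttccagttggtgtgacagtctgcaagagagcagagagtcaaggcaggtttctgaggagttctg

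**Figure D3:**
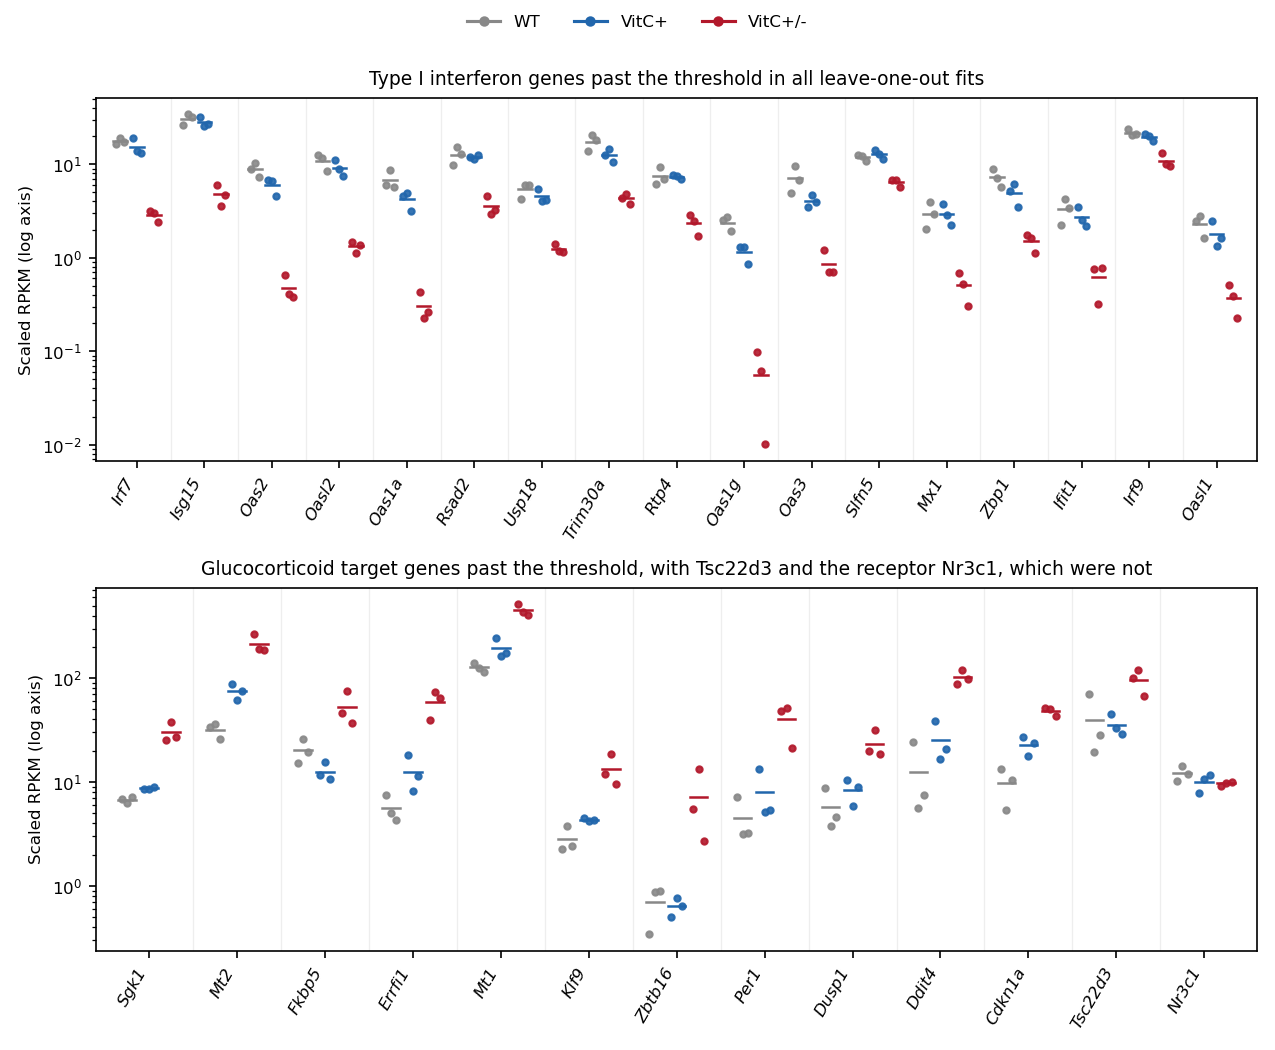
Scaled RPKM per library on a log axis, with WT in grey, VitC+ in blue and VitC+/- in red, and horizontal lines at group means (n = 3). In the upper panel the 3 VitC+/- libraries lie below all VitC+ libraries for each of the 17 stable type I interferon genes, and in the lower panel they lie above them for each of the 11 glucocorticoid target genes past the threshold, while Nr3c1 overlaps.

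Genes of developing B cells fell as well. Cells of the B lineage mature in the marrow from precursors that rearrange their immunoglobulin genes, carry a surrogate light chain and then the CD79 signalling pair. Of 18 precursor genes tested, 13 fell and 0 rose, 5 of them stably, where 7.53% of all genes tested fell and 1.99% did so stably, with a median of -1.95 (-2.23 to -1.72 with 1 library left out). With 1 library left out 5 to 13 passed, fewest without VitC+ replicate 2, and without both muscle-rich libraries 1 passed. Dntt, which adds bases at the joints of rearranging genes, had a scaled RPKM of 3.74, 10.8 and 6.44 in VitC+ and 0.444, 0.157 and 0.311 in VitC+/- (log2 fold change -3.12 ± 0.40 SE, limma adjusted p = 0.0030). Rag1, part of the recombinase, was at 0.623, 1.89 and 1.90 in VitC+ and 0.00417, 0.00910 and 0.00903 in VitC+/- and was thus close to 0 in all 3 VitC+/- libraries. It passed the threshold but not in each leave-one-out fit, with a limma adjusted p of up to 0.066. The B-cell precursor gene Vpreb3 was at 15.6, 30.1 and 31.4 in VitC+ and 0.694, 0.907 and 0.867 in VitC+/- (log2 fold change -4.25 ± 0.56 SE, limma adjusted p = 0.0033). Igll1 and Vpreb1, the surrogate light chain genes, had log2 fold changes of -3.83 and -3.75, and both lost the threshold without VitC+ replicate 2.

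B-lineage regulators and receptor parts were lower in part. Spib, a transcription factor of B cells and plasmacytoid dendritic cells, was at 8.24, 11.1 and 13.6 in VitC+ and 0.829, 1.27 and 1.87 in VitC+/- (log2 fold change -2.67 ± 0.31 SE, limma adjusted p = 0.0020). Pou2af1, a coactivator of immunoglobulin genes, and Cd79b were stable, with log2 fold changes of -2.03 and -1.96. Pax5, the factor that commits cells to the lineage, was at 6.15, 11.0 and 8.21 in VitC+ and 0.438, 1.00 and 1.38 in VitC+/-, passed with a limma adjusted p of 0.042 and passed in none of the leave-one-out fits. Ebf1 and Il7r, which act early in the lineage and also in other cells, did not pass and had overlapping groups, with log2 fold changes of 0.19 and -0.23. Of 13 mature B-cell genes, 8 fell and 0 rose, led by Fcrla, at 4.28, 7.53 and 8.29 in VitC+ and 0.371, 0.597 and 0.546 in VitC+/-, and Cd72, at 17.7, 19.0 and 20.0 in VitC+ and 6.00, 3.27 and 5.74 in VitC+/-. The mature B-cell count was 0 without the muscle-rich libraries. Of 11 plasma cell genes 3 were lower, including 2010001M09Rik (Mzb1) and Igj, the joining chain, and 1 was higher, Sdc1, a proteoglycan that other cells express too.

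Antigen-presenting cells followed the same direction. Of 22 dendritic cell and MHC class II genes tested, 13 fell and 0 rose, 8 of them stably, against 7.53% and 1.99% of all genes tested, with a median of -1.11. Without the muscle-rich libraries 3 passed, at a median of -1.30. Cd209a, a lectin of monocyte-derived dendritic cells, was at 7.26, 6.79 and 5.35 in VitC+ and 0.356, 0.307 and 0.352 in VitC+/- (log2 fold change -3.05 ± 0.25 SE, limma adjusted p = 0.00037). Siglech, a marker of plasmacytoid dendritic cells, the main producers of type I interferon, was at 5.28, 5.62 and 2.87 in VitC+ and 0.999, 0.696 and 0.963 in VitC+/- (log2 fold change -1.83 ± 0.26 SE, limma adjusted p = 0.0042). Clec9a, the receptor by which conventional dendritic cells take up dead cells, was at 2.51, 1.82 and 2.46 in VitC+ and 0.456, 0.589 and 0.439 in VitC+/-. Irf8, a factor required for both kinds, was at 38.9, 41.0 and 29.8 in VitC+ and 17.1, 20.0 and 16.0 in VitC+/-, about even within each group and without overlap. The MHC class II chaperone gene Cd74 was at 245, 187 and 259.9 in VitC+ and 82.5, 87.3 and 78.0 in VitC+/-, and H2-Eb1 and H2-DMa, a class II chain and a loader of peptides, were also stable, with log2 fold changes of -1.46, -1.68 and -1.03. Flt3, the receptor of early dendritic cell progenitors, was not lower, at 3.94, 3.74 and 2.97 in VitC+ and 4.78, 7.74 and 3.67 in VitC+/- (log2 fold change 0.49 ± 0.24 SE, limma adjusted p = 0.19).

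**Figure D4:**
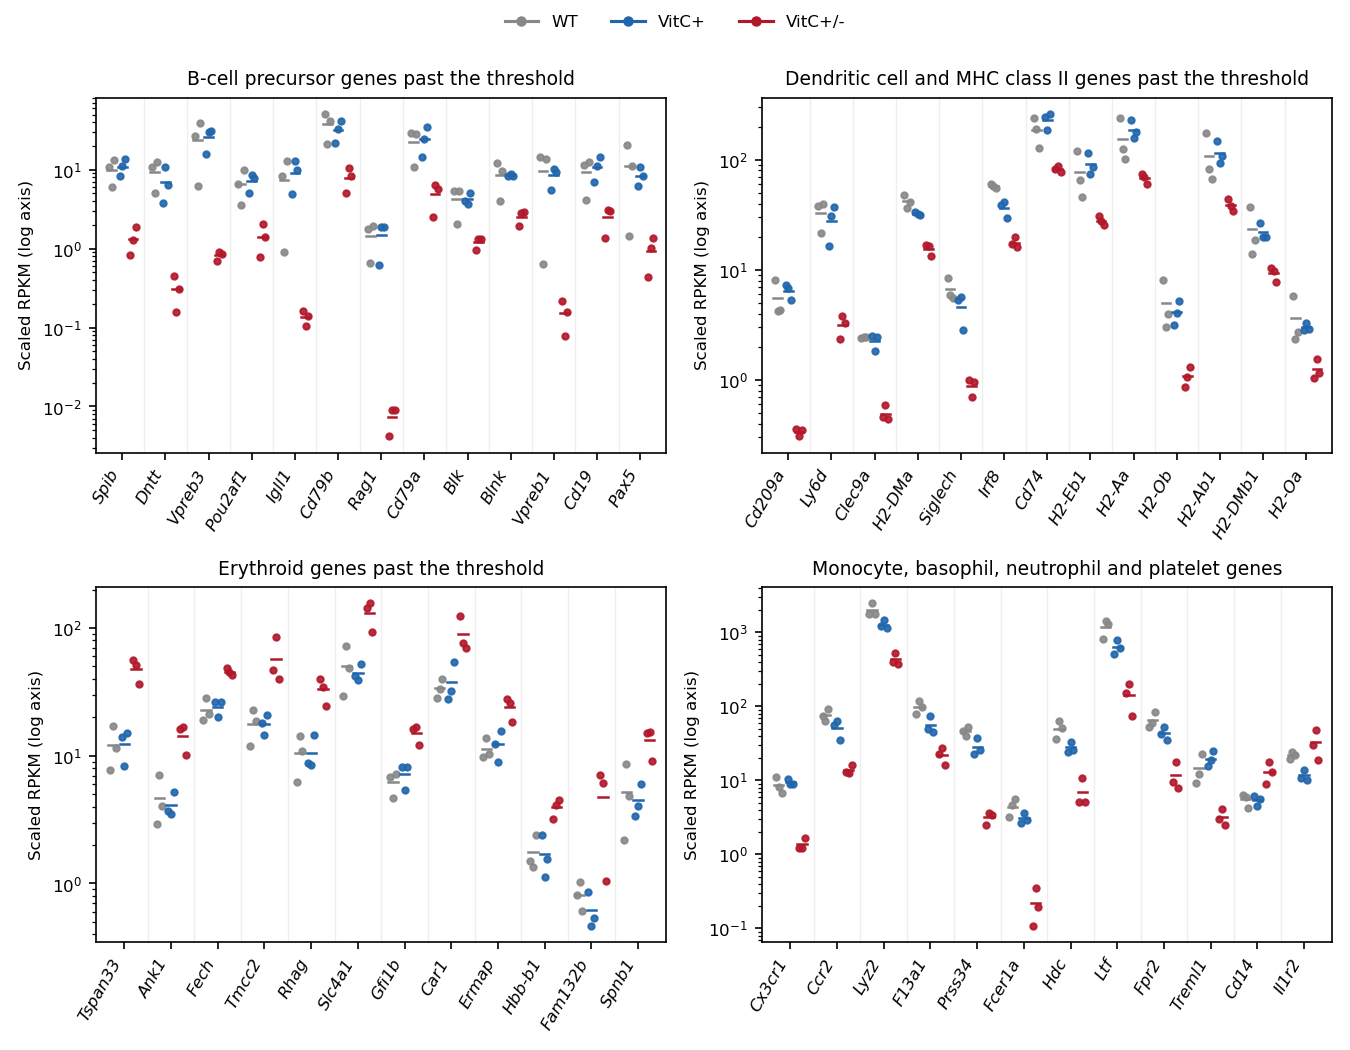
Scaled RPKM per library on a log axis (WT grey, VitC+ blue, VitC+/- red, lines at group means, n = 3) for genes past the threshold of the B-cell precursor, dendritic cell and MHC class II, and erythroid lists, and for 12 genes of monocytes, basophils, neutrophils and platelets. VitC+/- points lie below VitC+ points in the upper panels, above them for the erythroid genes, and on both sides in the last panel, where Cd14 and Il1r2 are higher.

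Myeloid lists were mixed. Of 23 monocyte and macrophage genes, 6 fell and 3 rose, and the median, -0.07, changed sign with the libraries and scaling used. The counts were 1 and 0 without the muscle-rich libraries. The 4 stable falls were in Cx3cr1, Ccr2, Lyz2 and F13a1. Cx3cr1, the fractalkine receptor, was at 10.6, 8.91 and 9.03 in VitC+ and 1.21, 1.24 and 1.67 in VitC+/- (log2 fold change -2.42 ± 0.20 SE, limma adjusted p = 0.00037). Ccr2, which draws monocytes out of the marrow, was at 55.5, 62.8 and 34.9 in VitC+ and 13.1, 12.6 and 16.1 in VitC+/- (log2 fold change -1.80 ± 0.23 SE, limma adjusted p = 0.0030). Lyz2, lysozyme, and F13a1, a clotting factor chain of monocytes, had log2 fold changes of -1.56 and -1.31. In contrast Cd14 and Csf1r, the latter also used by osteoclast precursors, were among the genes that rose, with log2 fold changes of 1.15 and 0.70, neither of them stable.

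Of 15 mast cell, basophil and eosinophil genes tested, 5 fell and 0 rose, with a median of -1.99, and 2 passed without the muscle-rich libraries. Prss34, a protease of basophils, was at 22.6, 36.8 and 25.8 in VitC+ and 2.47, 3.67 and 3.43 in VitC+/- (log2 fold change -2.95 ± 0.21 SE, limma adjusted p = 0.00037). Fcer1a, the receptor chain for immunoglobulin E, was at 2.66, 3.64 and 2.95 in VitC+ and 0.109, 0.355 and 0.196 in VitC+/- (log2 fold change -2.32 ± 0.24 SE, limma adjusted p = 0.0011), and Hdc, which makes histamine, was at 24.2, 33.3 and 26.0 in VitC+ and 5.13, 10.8 and 5.03 in VitC+/-. These 3 were stable. The median was the most sensitive to VitC+ replicate 1, the library with the highest sum over the list, and was -1.07 without it.

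For neutrophils, the lists follow maturation from primary granules, made first, to the receptors of mature cells. Of 12 primary granule genes 1 fell, of 14 secondary granule genes 3 fell, and of 22 genes of mature neutrophils 7 fell and 1 rose. Among all genes tested 7.53% fell and 5.93% rose, so the primary granule count was near that share. In these lists 0 genes passed without the muscle-rich libraries. Ltf, lactoferrin of secondary granules, was at 504, 793 and 606 in VitC+ and 154, 202 and 75.2 in VitC+/- (log2 fold change -2.23 ± 0.36 SE, limma adjusted p = 0.0073), and Fpr2, a receptor for bacterial peptides, at 42.1, 52.6 and 35.4 in VitC+ and 9.62, 17.6 and 7.88 in VitC+/-, both stable. The exception was Il1r2, a decoy receptor for interleukin 1, which rose from 10.8, 14.0 and 10.1 to 30.4, 48.1 and 19.0 (log2 fold change 1.36 ± 0.29 SE, limma adjusted p = 0.018), though not stably. Of 22 megakaryocyte and platelet genes, 9 fell and 0 rose, with Treml1, a receptor stored in platelet granules, at 15.6, 18.6 and 25.0 in VitC+ and 3.04, 4.08 and 2.52 in VitC+/- (log2 fold change -2.44 ± 0.32 SE, limma adjusted p = 0.0032) as the stable one. Of 23 T and NK cell genes 5 fell, none of them stably, with the granule protein gene Nkg7 first, at 53.8, 109 and 74.5 in VitC+ and 23.8, 35.8 and 13.4 in VitC+/-. In the platelet list and the T and NK cell list, 0 genes passed without the muscle-rich libraries. Of 15 stem and progenitor genes 3 fell, of which Cd48, present on most blood cells, was stable at 29.4, 36.2 and 26.8 in VitC+ and 11.0, 11.5 and 11.1 in VitC+/- (log2 fold change -1.41 ± 0.14 SE, limma adjusted p = 0.00098).

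Some erythroid genes went the other way. Red cell precursors build a membrane skeleton, take up iron for heme and carry bicarbonate exchangers. Of 38 genes tested 12 rose and 0 fell, against 5.93% and 7.53% of all genes tested, with a median of 0.62 (0.50 to 0.78 with 1 library left out), but Tspan33 was the single stable one. In 21 genes all VitC+/- libraries lay above all VitC+ libraries, against 21.4% of all genes tested. Tspan33, a tetraspanin of red cell precursors, was at 14.0, 8.34 and 15.1 in VitC+ and 56.3, 51.3 and 36.2 in VitC+/- (log2 fold change 1.92 ± 0.31 SE, limma adjusted p = 0.0070). Ank1, the ankyrin that ties the skeleton to the membrane, was at 3.71, 3.50 and 5.19 in VitC+ and 16.3, 16.7 and 10.1 in VitC+/- and passed in 5 of the 6 leave-one-out fits. Slc4a1, the anion exchanger band 3, was at 42.4, 39.1 and 52.4 in VitC+ and 142, 156 and 93.6 in VitC+/-, and Fech, the last enzyme of heme synthesis, at 26.2, 19.9 and 26.3 in VitC+ and 48.4, 45.5 and 42.8 in VitC+/-. Their VitC+/- values all lay above those of VitC+ and were lowest in VitC+/- replicate 3. Fam132b, the iron hormone erythroferrone, rose from 0.862, 0.467 and 0.538 to 7.07, 6.14 and 1.04. Alas2, the first enzyme of heme synthesis in red cells, overlapped between groups, at 133, 66.8 and 82.8 in VitC+ and 120.2, 123 and 96.4 in VitC+/- (log2 fold change 0.32 ± 0.23 SE, limma adjusted p = 0.39), and the sum over the list also overlapped, at 3309 to 5748 in VitC+ and 2797 to 5169.8 in VitC+/-. Without the 2 muscle-rich libraries 0 erythroid genes were past the threshold, and the median was 0.39.

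Tnfsf11 and some genes of bone resorption rose. RANKL, encoded by Tnfsf11, is made by osteocytes and stromal cells and drives precursors that carry its receptor RANK, encoded by Tnfrsf11a, to become osteoclasts, while osteoprotegerin, encoded by Tnfrsf11b, binds and blocks it. Tnfsf11, on chr14:78277446-78308043, had a scaled RPKM of 4.24, 2.66 and 5.07 in VitC+ and 16.1, 17.0 and 18.0 in VitC+/-, a 4.01-fold rise (log2 fold change 2.004 ± 0.21 SE, limma adjusted p = 0.0013), and the highest limma adjusted p over the leave-one-out fits was 0.0085. All VitC+/- libraries were close to each other and far above both VitC+ and WT, the latter at 1.57, 1.72 and 2.09. Tnfrsf11b overlapped between groups, at 1.34, 1.71 and 7.83 in VitC+ and 1.89, 1.31 and 5.09 in VitC+/- (log2 fold change -0.16 ± 0.61 SE, limma adjusted p = 0.88). Csf1, the survival factor for osteoclast precursors, overlapped too, at 20.6, 17.3 and 26.4 in VitC+ and 24.3, 17.2 and 35.3 in VitC+/- (log2 fold change 0.21 ± 0.27 SE, limma adjusted p = 0.63).

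Of 25 osteoclast genes outside the bone-selective list, 6 rose and 0 fell, against 5.93% and 7.53% of all genes tested, with a median of 0.53 (0.36 to 0.80 with 1 library left out). The rises numbered 1 without VitC+ replicate 2 or VitC+/- replicate 1, 11 without VitC+/- replicate 2, and 0 without the muscle-rich libraries. Calcr, the calcitonin receptor of mature osteoclasts, was at 0.648, 0.412 and 0.596 in VitC+ and 3.005, 2.24 and 3.09 in VitC+/- (log2 fold change 1.64 ± 0.22 SE, limma adjusted p = 0.0037) and was stable. The receptor gene Tnfrsf11a was at 3.49, 4.05 and 4.203 in VitC+ and 7.52, 4.97 and 8.56 in VitC+/-, and Nfatc1, the transcription factor that RANK switches on, at 10.3, 9.49 and 10.54 in VitC+ and 14.9, 13.02 and 22.0 in VitC+/-, with limma adjusted p of 0.046 and 0.046. For resorption itself, Ctsk, the collagen-cutting cathepsin K, was at 913, 972 and 1015 in VitC+ and 2710.4, 1439 and 3384 in VitC+/- (log2 fold change 1.29 ± 0.28 SE, limma adjusted p = 0.021). Clcn7 and Tcirg1, the chloride channel and a subunit of the pump that acidify the resorption pit, had log2 fold changes of 0.83 and 1.08. VitC+/- replicate 2 was the lowest of its group for Ctsk, Clcn7, Nfatc1 and Tnfrsf11a. In the V-type proton pump list as a whole, 0 of 19 genes rose and 1 fell, Atp6v0e2. Without the 2 muscle-rich libraries 0 osteoclast genes passed, at a median of 0.48, while Tnfsf11 still passed (limma adjusted p = 0.022).

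Of 23 marrow stromal genes 2 rose, Tnfsf11 and Kitl, and 3 fell, Il7, Bmp6 and Esm1. These counts are close to the shares of all genes tested, 5.93% higher and 7.53% lower, and the genes are described singly. Il7, the growth factor of lymphoid precursors, was at 2.16, 1.61 and 2.55 in VitC+ and 0.472, 0.233 and 0.503 in VitC+/- (log2 fold change -1.53 ± 0.35 SE, limma adjusted p = 0.025). Kitl, the stem cell factor that also supports red cell and mast cell precursors, was at 7.85, 7.03 and 7.94 in VitC+ and 11.7, 15.7 and 10.2 in VitC+/- (log2 fold change 0.67 ± 0.18 SE, limma adjusted p = 0.041). Both lost the threshold in at least 1 leave-one-out fit. Cxcl12, which holds stem cells in their niche, had a log2 fold change of 0.02 (limma adjusted p = 0.97).

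**Figure D5:**
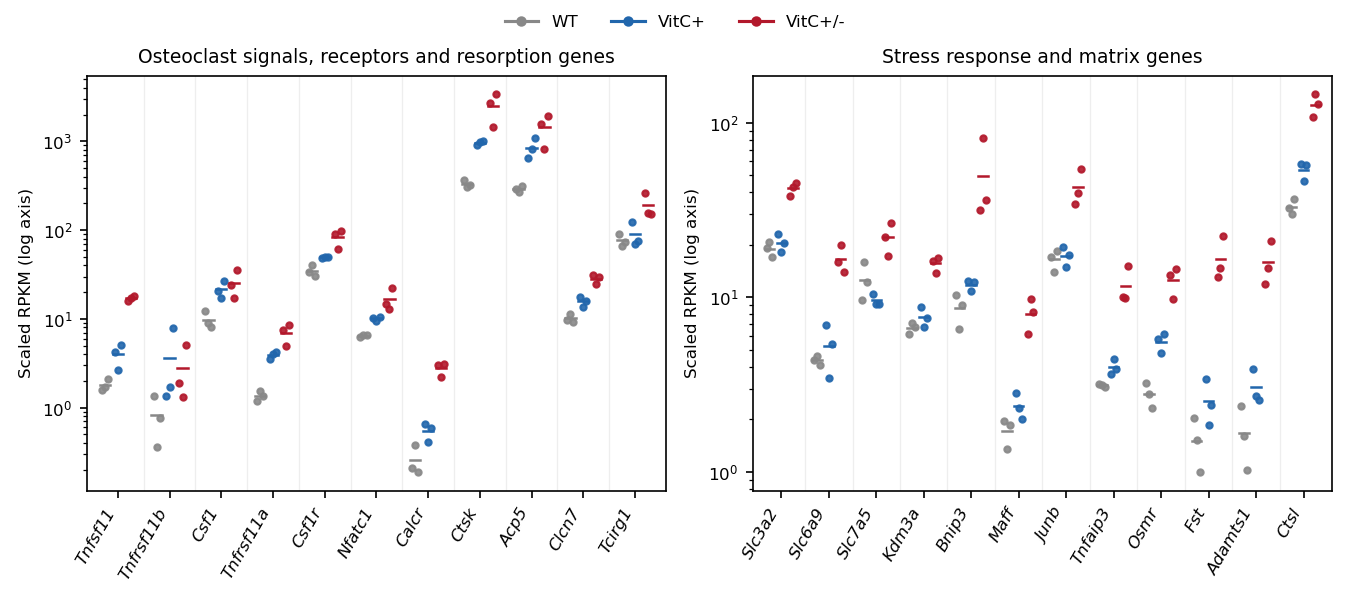
Scaled RPKM per library on a log axis (WT grey, VitC+ blue, VitC+/- red, lines at group means, n = 3) for genes that signal to or act in osteoclasts (left) and for stress response and matrix genes (right). Tnfsf11 and Calcr show the widest gap between VitC+ and VitC+/- on the left, where Tnfrsf11b, Csf1 and Acp5 overlap, and all 12 genes on the right are higher in each VitC+/- library.

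Further genes of osteoblasts and osteocytes were lower. Of 34 osteoblast and osteocyte genes that the study's list does not hold, 12 fell and 0 rose, against 7.53% and 5.93% of all genes tested, with a median of -1.32. The median was -0.77 without VitC+/- replicate 2, and the falls numbered 5 without VitC+ replicate 3, 7 without VitC+ replicate 2 or VitC+/- replicate 1, and 2 without both of these muscle-rich libraries. Besides Bglap2 and Cpz, the stable ones included Slc8a3, a sodium and calcium exchanger, at 6.02, 5.94 and 9.32 in VitC+ and 0.830, 0.497 and 1.41 in VitC+/- (log2 fold change -2.45 ± 0.36 SE, limma adjusted p = 0.0050), and Sgms2, a sphingomyelin synthase needed for mineralization, at 29.5, 33.8 and 51.9 in VitC+ and 7.57, 8.72 and 15.1 in VitC+/- (log2 fold change -1.84 ± 0.29 SE, limma adjusted p = 0.0059). Smpd3, which acts on the same lipid, was at 21.9, 20.5 and 37.8 in VitC+ and 2.13, 0.619 and 6.88 in VitC+/- but lost the threshold in 3 fits. Pdpn, a marker of young osteocytes, and Wif1, a secreted inhibitor of Wnt, fell with log2 fold changes of -2.04 and -1.600. Against WT, VitC+/- had 3 lower and 7 higher genes of this list, where 15.9% and 15.3% of all genes tested were lower and higher, and the median was 0.14. Wif1 was at 27.7, 10.6 and 19.6 in WT.

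Chondrocyte genes gave the lowest median of all lists, -2.81, with 6 of 15 lower and 0 higher. Only 1 passed without VitC+ replicate 3 or VitC+/- replicate 1, and 2 without VitC+ replicate 1 or VitC+/- replicate 2. Col2a1, the main cartilage collagen, was at 106, 129 and 274 in VitC+ and 16.6, 13.5 and 8.80 in VitC+/- (log2 fold change -3.57 ± 0.41 SE, limma adjusted p = 0.0017) and was stable. Lect1, which encodes chondromodulin, and Col9a2 were highest in VitC+ replicate 3, with Lect1 at 4.37, 1.57 and 33.3 in VitC+ and 0.174, 0.0634 and 0 in VitC+/-, and the list's sum was 268 to 1067 in VitC+ and 38.6 to 84.9 in VitC+/-. Without VitC+ replicate 3 the median was -1.80, and the part of retained cartilage in these differences was not tested. Among 25 fibroblast matrix genes 2 fell and 1 rose, near the shares of all genes tested. Dcn, the proteoglycan decorin, fell stably, at 196, 154 and 281 in VitC+ and 24.2, 36.8 and 35.1 in VitC+/- (log2 fold change -2.67 ± 0.47 SE, limma adjusted p = 0.010). Thbs2, a matricellular protein, rose from 8.16, 3.80 and 5.60 to 35.3, 17.4 and 98.5, but not stably. The rises in this list numbered 8 without VitC+/- replicate 2 and 0 without any other single VitC+ or VitC+/- library. Without the muscle-rich libraries 0 fibroblast matrix genes passed.

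Fat cell genes had a median of 0.98, and 2 of 19 rose, Plin4 and Pnpla2, which coat and break down lipid droplets. Plin4 was at 1.08, 0.610 and 1.04 in VitC+ and 5.53, 43.5 and 3.29 in VitC+/- and Pnpla2 at 11.5, 9.58 and 10.0 in VitC+ and 27.6, 129 and 20.0 in VitC+/-, and VitC+/- replicate 2 was far above the rest for both. Adipoq, which defines fat cells, was at 39.0, 18.3 and 41.1 in VitC+ and 16.8, 83.1 and 22.1 in VitC+/-, also highest in that library but with overlapping groups, and without that library the list's median was 0.23. The part of fat tissue in these differences was not tested. For skeletal muscle 0 of 22 genes fell and 0 rose by limma, also at an unadjusted p under 0.05, and the median was -0.64, from -2.07 to 0.63 with 1 library left out. Of endothelial genes 0 of 31 passed by limma, with 3 lower and 3 higher at an unadjusted p under 0.05, with the vessel marker Pecam1 at 31.1, 26.3 and 26.4 in VitC+ and 33.5, 24.4 and 31.1 in VitC+/-.

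Target genes of glucocorticoids formed the highest of the signalling lists. Glucocorticoids are adrenal hormones released in stress and fasting, and their receptor, encoded by Nr3c1, binds DNA and raises genes that restrain growth and inflammation. Of 25 genes tested 11 rose and 0 fell, against 5.93% and 7.53% of all genes tested. Of the rises 7 were stable, against 1.14% of all genes tested, and the median was 1.09 (0.92 to 1.30 with 1 library left out). Without the muscle-rich libraries 2 passed, at a median of 0.87. Sgk1, a kinase that controls sodium transport, on chr10:21882184-21999902, was at 8.66, 8.63 and 9.01 in VitC+ and 25.6, 37.9 and 27.3 in VitC+/-, a 3.27-fold rise (log2 fold change 1.71 ± 0.16 SE, limma adjusted p = 0.00067). Fkbp5, a chaperone that dampens the receptor, was at 11.6, 15.5 and 10.8 in VitC+ and 46.0, 75.6 and 36.8 in VitC+/- (log2 fold change 1.98 ± 0.28 SE, limma adjusted p = 0.0043). Both genes were even among the VitC+ libraries and highest in VitC+/- replicate 2.

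The metallothionein genes Mt1 and Mt2, which bind zinc and copper and also respond to metals, were at 244, 162 and 173 in VitC+ and 515, 434 and 406 in VitC+/- and at 88.5, 61.7 and 74.8 in VitC+ and 268, 191 and 186 in VitC+/-, with log2 fold changes of 1.24 ± 0.18 and 1.51 ± 0.20. Zbtb16, a transcription factor almost silent in VitC+, was at 0.504, 0.761 and 0.644 in VitC+ and 5.45, 13.3 and 2.71 in VitC+/- (log2 fold change 2.50 ± 0.46 SE, limma adjusted p = 0.011). Klf9 and Errfi1, a transcription factor and an inhibitor of the epidermal growth factor receptor, were stable rises as well, with log2 fold changes of 1.47 and 2.22. Per1, Dusp1, Ddit4 and Cdkn1a, a clock gene, a phosphatase of MAP kinases, an inhibitor of mTOR and an inhibitor of cell division, passed but not stably. Tsc22d3, also called Gilz, a classic target, was at 45.5, 33.1 and 28.7 in VitC+ and 100, 119 and 67.8 in VitC+/- and missed the threshold (log2 fold change 1.39 ± 0.42 SE, limma adjusted p = 0.055). The receptor gene Nr3c1 was at 7.89, 10.7 and 11.6 in VitC+ and 9.20, 9.84 and 10.0 in VitC+/- (log2 fold change -0.04 ± 0.17 SE, limma adjusted p = 0.91).

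The letters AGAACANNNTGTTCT, a full palindromic glucocorticoid response element, were found in 1 of 20 promoters of this list and in 1 of 8925 promoters of all genes tested, on either strand, and that one was the promoter of Sgk1. No match in the other windows says nothing of elements that differ from these letters or lie further away. The Sgk1 promoter (chr10:21993640-21993939, plus strand, GRCm38.p6) is shown because it holds the match, in capitals, whose nearer end lies 175 bases before the start site.
Sgk1: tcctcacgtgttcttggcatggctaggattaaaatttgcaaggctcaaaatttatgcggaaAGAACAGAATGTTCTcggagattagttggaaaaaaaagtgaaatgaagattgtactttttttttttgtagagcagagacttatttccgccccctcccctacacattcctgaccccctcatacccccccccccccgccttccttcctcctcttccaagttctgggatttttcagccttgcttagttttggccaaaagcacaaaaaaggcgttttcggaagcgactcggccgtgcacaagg

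Clock genes rose in part. The core clock is a loop in which CLOCK and BMAL1 drive the Per and Cry genes, whose proteins then repress them. Of 17 genes tested 6 rose and 0 fell, against 5.93% and 7.53% of all genes tested, with a median of 0.59 (0.53 to 0.67 with 1 library left out). Only 2 passed when any 1 VitC+ library was left out, 3 or 4 when any 1 VitC+/- library was, and 0 without the muscle-rich libraries. Per2 was at 2.50, 2.36 and 2.12 in VitC+ and 6.21, 7.56 and 6.51 in VitC+/- (log2 fold change 1.36 ± 0.18 SE, limma adjusted p = 0.0036) and Cry1 at 3.88, 5.51 and 4.43 in VitC+ and 9.01, 9.94 and 11.8 in VitC+/- (log2 fold change 1.08 ± 0.20 SE, limma adjusted p = 0.012), both without overlap and stable. The other rises were in Clock, Cry2, Rora and Nfil3, with log2 fold changes of 0.69 to 1.16. The hour at which tissue was taken is not given in the sources used here, and its part in these differences was not tested.

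Genes of inflammation and early response rose in smaller numbers. Of 23 acute inflammation genes 6 rose and 0 fell, and 1 passed without the muscle-rich libraries. Tnfaip3, an enzyme that limits NF-kB, was at 3.64, 4.45 and 3.91 in VitC+ and 10.0, 9.92 and 15.1 in VitC+/- (log2 fold change 1.41 ± 0.18 SE, limma adjusted p = 0.0030), and Osmr, the receptor of oncostatin M, at 5.76, 4.77 and 6.12 in VitC+ and 13.5, 9.81 and 14.6 in VitC+/- (log2 fold change 1.10 ± 0.19 SE, limma adjusted p = 0.0089). Socs3, which limits cytokine signals, and Lif, a cytokine of the interleukin 6 family, passed without being stable, with log2 fold changes of 1.373 and 1.44. Of 21 immediate early genes 6 rose and 0 fell, with Maff, Junb and Jun stable, and 1 passed without the muscle-rich libraries. Maff was at 2.82, 2.32 and 2.01 in VitC+ and 6.20, 9.77 and 8.24 in VitC+/-, Junb at 19.5, 14.9 and 17.6 in VitC+ and 34.1, 39.8 and 54.5 in VitC+/- and Jun at 5.38, 4.44 and 4.35 in VitC+ and 8.84, 9.19 and 14.2 in VitC+/-, with limma adjusted p of 0.0036, 0.0058 and 0.011. Of 19 chemokine genes tested 1 rose, Ccl9, a chemokine that osteoclasts make, at 32.9, 31.6 and 23.4 in VitC+ and 50.1, 56.8 and 60.7 in VitC+/- (log2 fold change 0.93 ± 0.17 SE, limma adjusted p = 0.012). The chemokine count was near the share of all genes tested that rose, 5.93%.

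Amino acid supply and one-carbon genes rose in part. Of 27 tested 7 rose and 0 fell, and 0 passed without the muscle-rich libraries. Slc3a2 and Slc7a5 together form the LAT transporter of large neutral amino acids. Slc3a2 was at 23.0, 18.1 and 20.5 in VitC+ and 37.9, 43.0 and 45.1 in VitC+/- (log2 fold change 1.02 ± 0.14 SE, limma adjusted p = 0.0039) and Slc7a5 at 10.4, 9.20 and 9.19 in VitC+ and 22.1, 17.3 and 26.6 in VitC+/- (log2 fold change 1.14 ± 0.21 SE, limma adjusted p = 0.011). Slc6a9, a glycine transporter also used by red cell precursors, was at 6.92, 3.47 and 5.40 in VitC+ and 15.8, 19.9 and 13.9 in VitC+/- (log2 fold change 1.596 ± 0.23 SE, limma adjusted p = 0.0045). These 3 were stable, while Trib3 and Ppp1r15a, which act in the integrated stress response, passed but not stably. Of 28 chaperone and secretion genes of the endoplasmic reticulum 2 fell, Creld2 and Manf, and 0 rose. The falls were near the share of all genes tested, 7.53%.

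Hypoxia-inducible factors, whose breakdown is started by hydroxylases of the VitC-using family, switch on the hypoxia genes. Of 30 tested 7 rose and 0 fell, and the median was 0.20. The count was 0 without the muscle-rich libraries. Bnip3, a mitochondrial protein that starts mitophagy, was at 12.4, 10.9 and 12.2 in VitC+ and 31.6, 81.2 and 36.0 in VitC+/- (log2 fold change 1.90 ± 0.32 SE, limma adjusted p = 0.0080), and Kdm3a, a histone demethylase, at 8.82, 6.79 and 7.59 in VitC+ and 16.1, 13.9 and 16.9 in VitC+/- (log2 fold change 0.97 ± 0.15 SE, limma adjusted p = 0.0055). Vegfa, the growth factor of vessels, and Slc2a1, a transporter of glucose and oxidized VitC, were higher without being stable, with log2 fold changes of 0.93 and 1.203. Of 21 p53 targets 4 rose and 0 fell, none stably, among them Sesn2 and Plk3, both also stress-inducible in other ways. The p53 count was 0 without the muscle-rich libraries.

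Of 39 TGF-beta and BMP genes 7 rose and 4 fell, where 5.93% of all genes tested rose and 7.53% fell, so the falls were near the share of all genes. The counts were 1 and 0 without the muscle-rich libraries. Fst, follistatin, which traps activins, was at 3.39, 1.86 and 2.42 in VitC+ and 13, 14.7 and 22.3 in VitC+/- (log2 fold change 2.48 ± 0.28 SE, limma adjusted p = 0.0017). The receptor gene Acvrl1 was at 12.5, 12.5 and 10.2 in VitC+ and 4.84, 4.87 and 3.80 in VitC+/- (log2 fold change -1.29 ± 0.15 SE, limma adjusted p = 0.0020) and the ligand gene Bmp7 at 2.92, 1.73 and 2.998 in VitC+ and 0.396, 0.293 and 0.582 in VitC+/- (log2 fold change -1.71 ± 0.31 SE, limma adjusted p = 0.011). These 3 were stable, and Bmp7 in VitC+/- was nearer to WT, at 1.65, 0.613 and 0.712, than to VitC+. Of 21 Wnt genes 3 rose, the receptors Fzd1 and Fzd4 and the inhibitor Kremen1, and 0 fell. No Wnt rise was stable, and the Wnt count fell to 0 without VitC+ replicate 2 or 3 and without the muscle-rich libraries. Of 28 FGF and IGF genes 3 rose, Igfbp3, Spry1 and Irs2. The FGF and IGF count fell to 0 without VitC+ replicate 2 or 3 or VitC+/- replicate 1 or 3. No Notch or Hedgehog gene passed by limma, of 13 and 9 tested, with 1 Notch gene higher, 0 lower and 0 Hedgehog genes in either direction at an unadjusted p under 0.05.

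Matrix remodelling genes followed with 6 of 31 higher and 3 lower, where 5.93% of all genes tested were higher and 7.53% lower. The matrix counts were 2 higher and 1 lower without the muscle-rich libraries. Adamts1, a protease that cuts proteoglycans, was at 3.90, 2.72 and 2.58 in VitC+ and 11.96, 14.7 and 21.0 in VitC+/- (log2 fold change 2.18 ± 0.28 SE, limma adjusted p = 0.0030). Ctsl, cathepsin L, was at 58.1, 46.4 and 56.9 in VitC+ and 107, 145 and 128 in VitC+/- (log2 fold change 1.23 ± 0.16 SE, limma adjusted p = 0.0030). Mmp16, a membrane-bound metalloproteinase, went the other way, at 3.56, 3.99 and 5.20 in VitC+ and 0.639, 0.199 and 0.439 in VitC+/- (log2 fold change -2.37 ± 0.25 SE, limma adjusted p = 0.0013). Its VitC+/- values were below those of WT as well, at 1.57, 0.953 and 1.40. Loxl4 and Fap, a collagen crosslinker and a protease of activated fibroblasts, were lower without being stable, with log2 fold changes of -1.96 and -1.31.

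Enzymes that use VitC were measured next. Of 15 genes for collagen hydroxylases and their partners 0 fell and 0 rose by limma, and the same was true at an unadjusted p under 0.05. P4ha1, a prolyl hydroxylase of collagen, was at 17.3, 12.6 and 18.1 in VitC+ and 11.6, 5.04 and 27.7 in VitC+/- and Plod1, a lysyl hydroxylase, at 17.2, 11.97 and 17.6 in VitC+ and 17.9, 14.1 and 32.2 in VitC+/-, with overlapping groups. Of 34 dioxygenases of histones, DNA and RNA 6 rose and 3 fell. Among all genes tested 5.93% rose and 7.53% fell, so the falls were near that share. Of the 6 rises 1 was stable, and the rises numbered 1 without VitC+ replicate 1 or VitC+/- replicate 1. The dioxygenase counts were 0 and 0 without the muscle-rich libraries. Tet2, which oxidizes methylated DNA, was at 3.17, 4.70 and 3.69 in VitC+ and 8.82, 8.79 and 6.60 in VitC+/- (log2 fold change 0.98 ± 0.20 SE, limma adjusted p = 0.015), and Tet3 at 4.68, 6.32 and 5.47 in VitC+ and 7.54, 9.91 and 7.36 in VitC+/- (log2 fold change 0.55 ± 0.18 SE, limma adjusted p = 0.067), so Tet2 alone passed. Tet1 was below the filter. Kdm4b, Kdm6a and Kdm2a, histone demethylases, rose with log2 fold changes of 0.71, 0.72 and 0.41, and Alkbh7, a mitochondrial member, fell stably, at 8.32, 6.11 and 6.16 in VitC+ and 3.34, 3.54 and 2.88 in VitC+/- (log2 fold change -0.96 ± 0.17 SE, limma adjusted p = 0.010).

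For VitC itself, the transporter gene Slc23a2 was at 3.30, 3.33 and 3.61 in VitC+ and 4.33, 4.29 and 5.78 in VitC+/-, with no overlap but a limma adjusted p of 0.18. Gsto1, an enzyme that reduces oxidized VitC with glutathione, was at 28.7, 31.9 and 23.4 in VitC+ and 53.6, 51.9 and 54.0 in VitC+/- (log2 fold change 0.92 ± 0.15 SE, limma adjusted p = 0.0073) and was stable. Gclc, which makes the glutathione precursor, was at 6.83, 6.29 and 8.25 in VitC+ and 17.7, 16.1 and 16.3 in VitC+/- (log2 fold change 1.18 ± 0.20 SE, limma adjusted p = 0.0077), also stable, in a list of 31 NRF2 and glutathione genes with 2 higher and 1 lower. Of 8 VitC transport and recycling genes tested 2 rose, Gsto1 and Slc2a1, and 1 fell, Glrx, a glutaredoxin. In iron handling, 2 of 22 genes fell, the exporter Slc40a1 and Bmp6, and 1 rose, Fam132b. The NRF2 and iron handling counts were near or below the shares of all genes tested, 7.53% lower and 5.93% higher.

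Few genes of energy metabolism and growth passed. Of 24 glycolysis genes 1 rose and 0 fell, of 25 citric acid cycle genes 1 fell, Ogdh, and of 71 respiratory chain genes 2 rose, Ndufa10 and Ndufv1. Ppargc1b, a coactivator of mitochondrial genes that osteoclasts also need, was the stable one among 25 fatty acid oxidation genes, at 1.28, 0.974 and 1.27 in VitC+ and 3.74, 2.94 and 3.58 in VitC+/- (log2 fold change 1.22 ± 0.22 SE, limma adjusted p = 0.0099). For fatty acid synthesis and for carnitine 0 of 23 and 0 of 7 passed by limma, with 7 and 1 higher and 2 and 1 lower at an unadjusted p under 0.05. Of 25 cholesterol synthesis genes 1 rose, Hsd17b7. Cell cycle genes gave 4 of 36 higher for G1 and S phase, Ccne1, Pole, Cdt1 and E2f2, and 0 of 34 for G2 and M phase, where 1 was higher at an unadjusted p under 0.05. The G1 and S phase rises were not stable. They numbered 4 without VitC+/- replicate 3 and 0 without any other single VitC+ or VitC+/- library. Without the muscle-rich libraries 0 passed. Of 79 ribosomal protein genes 1 fell, and of 38 proteasome genes 1 rose, Psmd3, and 1 fell, the interferon-induced subunit Psmb9. Each share past the threshold is at or below that of all genes tested, 7.53% lower and 5.93% higher, apart from G1 and S phase.

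Read against the libraries labelled WT, the withdrawal group can be set beside the same lists. WT replicate 3 showed no Gulo signal, and WT replicate 1 had the lowest depth, at 7526000 reads or read pairs. WT replicates 1 and 3 also had high muscle sums. The contrast with WT shares the VitC+/- libraries, so its values are given beside those above and not as a second test. In it 15.9% of all genes tested were lower and 15.3% higher. Of 18 B-cell precursor genes 14 were lower and 0 higher in VitC+/- than in WT, and of 22 dendritic cell and MHC class II genes 18 and 1. Both lists had medians near those against VitC+, at -1.86 and -1.31. Of 25 osteoclast genes 16 exceeded WT and 0 fell short of it, at a median of 1.45. Of 25 glucocorticoid targets 15 were higher and 3 lower, and of 38 erythroid genes 15 and 1. Of 15 chondrocyte genes 1 was lower, against 6 in the comparison with VitC+. Of 36 G1 and S phase genes 17 were lower and 0 higher than in WT, beside 0 and 4, not stable, against VitC+. Of 34 G2 and M phase genes 11 were lower and 0 higher than in WT, beside 0 and 0. Of 12 primary granule genes 11 were lower than in WT, beside 1 against VitC+. Of 31 endothelial genes 18 were higher than in WT, beside 0 against VitC+, as were 18 of 28 FGF and IGF genes and 20 of 39 TGF-beta and BMP genes. Whether the contrasts differ for these lists was not tested. Isg15 was at 26.1, 34.0 and 32.3 in WT, Cx3cr1 at 11.1, 8.12 and 6.80 and Sgk1 at 6.89, 6.24 and 7.16, and the VitC+/- values of these 3 genes lay outside the WT range on the same side as against VitC+.

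Which library decided a call differed by list. Of the 6 libraries, leaving out VitC+/- replicate 1 left the fewest lower calls and leaving out VitC+ replicate 2 the fewest higher ones, and both are muscle-rich. The type I interferon median moved little, from -1.197 to -0.99, and so did those of clock genes and of dendritic cell and MHC class II genes, the latter from -1.29 to -1.05. Wide ranges belonged to fat cell genes, from 0.23 to 1.40, chondrocyte genes, from -3.46 to -1.80, and mast cell, basophil and eosinophil genes, from -2.27 to -1.07. For skeletal muscle and for tendon and ligament genes, the latter from -1.004 to 0.73, the ranges were wider still and the median changed sign. No gene past the threshold changed sign in these fits, which share most libraries with the fit that picked the genes. The genes that passed varied. Some calls needed all of the libraries, as Pax5 and Cdkn1a passed in none of the 6 fits and Fam132b in 1.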

How the data were processed

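Femoral RNA-seq libraries of VitC+, VitC+/- and WT mice, 3 each, were used, every one with its own file of RPKM values per gene deposited by the authors. Per the submitters' processing notes, reads were checked with FastQC 0.72, trimmed with Trim Galore 0.4.3.1, aligned to mm10 with STAR 2.6.0b-1 and counted with featureCounts 1.6.3, and DESeq2 2.11.40.2 is also named there. The study's methods name cufflinks for FPKM, while the deposited column is headed RPKM, and which of the counting tools made it was not settled. Thus 1 step of the values can be a read or a read pair. Whether counting used strand is not given in the sources used here, so overlapping and antisense genes cannot be separated. RPKM depends on the annotated length and keeps no reads directly. Depth was therefore computed from the step between low values, of which 93.86% to 94.91% per library came out as whole units (tolerance 0.1). Rebuilt counts were used for depth alone.

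Of 23358 entries, 69 sharing 26 names were dropped. RPKM values were divided by median-of-ratios factors, and genes with at least 1 RPKM in at least 3 of 9 libraries (12571) were fitted as log2(value + 0.5) with limma 3.58.1 (R 4.3.3, trend, contrast VitC+/- minus VitC+, two-sided, Benjamini-Hochberg over all genes tested). In simulated data for this contrast on 12571 genes, 196 of 200 changed genes were recovered with 8 false calls. Each changed gene was moved by 3 on the log2 scale, with noise drawn independently for each gene. Many changes named above are smaller, and how recovery and false calls depend on the size of a change was not tested. Each VitC+ and VitC+/- library was left out in turn with the same genes and factors. Other scalings, filters, pseudocounts and designs were also tried. Tables and figures were made with Python 3.11.15, pandas 2.3.3, numpy 2.4.6 and matplotlib 3.10.9.

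The genes named are the 10 largest falls and 10 largest rises that were stable, without overlap, outside the bone-selective list and at a mean of at least 5 scaled RPKM in the higher group, up to 6 members of each list with the lowest p, members that define a cell type or step, and Gulo. Any other gene was chosen after its values were seen. The comparison and the lists were chosen with earlier results of these data known. A few list members counted here are not reported by name.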

Additional observations from a re-analysis of the deposited data

How the results depend on the processing

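The counts of 946 lower and 745 higher genes were within 1.5 times of the reported values under quantile normalization, no filter, an RPKM filter of 5, pseudocounts of 0.1 and 1, no trend, and the 6 VitC+ and VitC+/- libraries alone. Without scaling between libraries they were 405 and 472, and the median of all genes tested shifted by 0.11 on the log2 scale. With library weights they were 2536 and 2589. Leaving out 1 VitC+ or VitC+/- library gave 321 to 786 lower and 167 to 626 higher genes, and leaving out 1 WT library 653 to 1219 and 443 to 1076. Without the 2 muscle-rich libraries, an alternative chosen after seeing the data, they were 72 and 16. With the replicate number as a replicate block they were 1215 and 968. Deviations of same-numbered VitC+ and VitC+/- libraries correlated at -0.07, 0.06 and 0.37. Those of a WT library with a same-numbered VitC+ or VitC+/- library correlated at -0.19 to 0.47. Same-numbered libraries thus deviated together in some pairs and not in others, and whether the numbers pair the samples was not settled. Stable genes numbered 393, and 367, 399 and 369 with a pseudocount of 0.1, one of 1 and the 6 libraries alone, of which 360, 384 and 285 were shared with the 393. The causes of these differences were not tested.

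Of the 60 list medians, 13 moved by more than the spread between libraries without scaling, 16 with library weights and at most 9 when 1 library was left out. Medians that changed sign under at least 1 alternative included those of endothelial, cholesterol synthesis, monocyte and macrophage, respiratory chain, collagen hydroxylase, fibroblast matrix, Wnt, tendon and ligament, and skeletal muscle genes. Of 166 named genes past the threshold, 97 to 136 remained past it with 1 VitC+ or VitC+/- library left out and 32 without the muscle-rich libraries. No named gene past the threshold changed direction under any alternative, each of which shares libraries with the fit that picked the genes. The 6 libraries held 30870000 to 46980000 reads or read pairs, so low genes rest on few reads, and RPKM gives no counting error for them.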
